A study of Mus musculus with 2 samples.

Results

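The 10 genes described here encode transcription factors that endothelial cells (ECs) are known for: the ETS factors Erg, Fli1, Ets1 and Ets2, the SOXF factors Sox7, Sox17 and Sox18, the blood and vessel factors Tal1 and Lmo2, and the MADS-box factor Mef2c. They were chosen by name and are 10 of the 21884 mouse genes in the count table. Their RNA was counted in 1 pooled 10x Genomics single-cell library of liver and heart cells from mouse pups, in which hashtag antibodies marked 6 groups. The study compared conditional alleles that report and drive Cre recombination in ECs. The groups were control, iSuRe-Cre and iSuRe-HadCre cells of heart, and control, iSuRe-Cre and iSuRe-HadCre cells of liver.

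All pups are labelled as strain C57BL/6 of age P6-P7, given 1 dose of 40 mg/kg 4-hydroxytamoxifen at postnatal day 3 and dissected 3 days later. The genotype in the labels is Cdh5-CreERT2 + iHadSuRe-Cre for the whole library, where Cdh5-CreERT2 is a Cre recombinase made in ECs and activated by tamoxifen. The iSuRe-Cre allele keeps Cre on for good in recombined cells, and the iSuRe-HadCre allele keeps it on only for a time. Floxed Notch1 alleles of the iSuRe groups are shown in a figure of the study and not in the labels, and the sources used here do not give the control genotype. Cells were sorted on the endothelial surface protein CD31 and on the Tomato signal. The sources read for this work do not say how many pups made up a group, so each group is 1 sample, no test or p-value is given, and the 95% intervals cover counting error only.

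ETS factors bind a GGAA core that is found in the control regions of nearly every endothelial gene, and ERG and FLI1 keep endothelial identity and vessel walls intact. SOX7, SOX17 and SOX18 form the SOXF group, whose members act in part in place of each other in arteries and veins, with SOX17 known for arteries and SOX18 for lymphatic vessels. TAL1 binds DNA in a complex that LMO2 bridges to GATA factors, which forms both red blood cells and early vessels, and MEF2C works in heart, muscle, brain and immune cells as well as in ECs.

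The genes lie on 7 mouse chromosomes, and the ETS genes form close pairs. In GRCm38, Erg (ENSMUSG00000040732, chr16:95359169-95586593, minus strand) and Ets2 (ENSMUSG00000022895, chr16:95702075-95721051, plus strand) are 115481 bases apart on opposite strands, with 0 annotated genes between them. Fli1 (ENSMUSG00000016087, chr9:32422204-32542861, minus strand) and Ets1 (ENSMUSG00000032035, chr9:32636221-32757820, plus strand) are 93359 bases apart on opposite strands, with 2 genes between them of which 0 code for protein. The SOXF genes are scattered, with Sox7 (ENSMUSG00000063060, chr14:63943673-63950732, plus strand), Sox17 (ENSMUSG00000025902, chr1:4490931-4497354, minus strand) and Sox18 (ENSMUSG00000046470, chr2:181669836-181671640, minus strand). Lmo2 (ENSMUSG00000032698, chr2:103957986-103981878, plus strand) shares its chromosome with Sox18. Tal1 (ENSMUSG00000028717, chr4:115056426-115071755, plus strand) and Mef2c (ENSMUSG00000005583, chr13:83504034-83667080, plus strand) are each on a chromosome with no other of the 10. All are annotated as protein coding.

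RefSeq promoter windows (GRCm38.p6) were found for 4 of the 10 genes, Erg, Ets2, Tal1 and Mef2c. The 3 that overlap no annotated gene are shown, because they are the 250 bases just before the start of a factor of the endothelial network and can be read for the core motifs of the other factors. Capitals mark the ETS core GGAA and the GATA motif AGATAA on either strand (TTCC and TTATCT when read on the other), and the motifs do not overlap each other in these windows. Tal1 is chr4:115056176-115056425 on the plus strand, Mef2c is chr13:83503784-83504033 on the plus strand and Erg is chr16:95586594-95586843 on the minus strand.
Tal1: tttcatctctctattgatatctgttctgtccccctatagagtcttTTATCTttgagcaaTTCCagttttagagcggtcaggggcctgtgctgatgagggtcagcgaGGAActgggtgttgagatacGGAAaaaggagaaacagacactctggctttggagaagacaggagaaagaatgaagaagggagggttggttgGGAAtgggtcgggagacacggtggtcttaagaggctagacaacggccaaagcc
Mef2c: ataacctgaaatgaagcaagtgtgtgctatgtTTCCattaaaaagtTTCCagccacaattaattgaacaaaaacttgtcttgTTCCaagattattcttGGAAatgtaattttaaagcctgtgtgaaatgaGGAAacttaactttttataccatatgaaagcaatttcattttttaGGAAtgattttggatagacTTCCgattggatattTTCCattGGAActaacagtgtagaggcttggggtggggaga
Erg: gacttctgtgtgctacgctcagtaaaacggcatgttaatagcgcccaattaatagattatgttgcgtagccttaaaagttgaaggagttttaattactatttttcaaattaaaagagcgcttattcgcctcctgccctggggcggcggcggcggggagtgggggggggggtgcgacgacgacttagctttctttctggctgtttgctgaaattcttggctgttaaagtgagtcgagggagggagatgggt
The Tal1 window held 4 copies of GGAA and 1 of AGATAA, the Mef2c window 9 copies of GGAA and 0 of AGATAA, and the Erg window 0 copies of GGAA. Over 32851 mouse promoter windows of this length, 93.45% held GGAA at least once, 33.4% held 4 or more copies, 0.505% held 9 or more, and 9.99% held AGATAA. The absence of GGAA before Erg was shared with 6.55% of them. These counts hold for 1 window of each gene, since the table gives other windows that lie within the genes, with 4 and 2 copies of GGAA for Erg, 2 and 1 for Mef2c and 3 for Tal1. A match is a run of letters and not a binding site.

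Cells were barcodes with 2000 to 75000 unique molecular identifiers (UMIs, one for each RNA molecule counted), and the Cdh5-positive cells of a group carried its hashtag and at least 1 UMI of Cdh5, the VE-cadherin gene. They numbered 255, 437 and 319 in control, iSuRe-Cre and iSuRe-HadCre heart and 61, 903 and 84 in the same liver groups, 2059 in all. The groups held 838074 to 10253165 UMIs, with a median of 7392 to 16398 UMIs per cell, the highest in iSuRe-Cre heart. Levels are UMIs relative to all UMIs of the group, written as CPM (counts per 1000000). Pecam1, which encodes CD31, was at 451 to 842 CPM in every group. Notch1 was at 137 (control), 12.9 (iSuRe-Cre) and 23.5 CPM (iSuRe-HadCre) in heart, and at 143, 21.6 and 33.5 in the liver groups, so it was lower in all 4 iSuRe groups than in the control of the same organ. WPRE, a sequence of the added transgenes, was at 563 (control), 63.0 (iSuRe-Cre) and 1021 CPM (iSuRe-HadCre) in heart and at 338, 99.1 and 867 in liver, so both control groups were above the iSuRe-Cre group of their organ. In each group 6 to 60 cells also carried 1 of 2 tags with no group in the labels.

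The liver groups differed in their cell make-up, and the group labelled control liver nearly lacked markers of liver sinusoids. The sinusoidal markers Stab2, Oit3, Clec4g and Fcgr2b summed to 68.0 (control), 2143 (iSuRe-Cre) and 427 CPM (iSuRe-HadCre), against 7.05 to 16.1 in the heart groups. The large-vessel markers Gja5, Vwf, Bmx and Fbln2 summed to 1006, 625 and 956 CPM in the 3 liver groups. Markers of the neutrophil lineage were also high in liver, at 5878 (control), 3351 (iSuRe-Cre) and 2338 CPM (iSuRe-HadCre), against 19.7 to 101 in heart. Every liver comparison below is therefore one between unlike mixtures of cells, and genotype and mixture cannot be told apart in it. Whether the hashtag of control liver marks the cells that its label names was not tested, and the labels do not settle it.

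To see which cells carried each factor, cells of the whole library, with or without a hashtag, were gated by their UMIs of marker genes that are not among the 10. Of 22 gates, 16 held at least 20 cells. The capillary gate, defined by Tcf15, Fabp4, Car4 and Meox2, held 2873 cells, the sinusoidal gate 429, the large-vessel gate 211 and the endocardial gate 25, the last defined by markers of the inner lining of the heart such as Npr3. The other gates required 0 UMIs of Cdh5. No assigned tag was seen in 127 of 133 chondrocytes, 175 of 183 keratinocytes and 1020 of 1054 mesenchymal cells. The same held for 235 of 245 neurons and 229 of 235 neural progenitors or glia, but for only 4 of 31 T or NK cells. The organ of cells without an assigned tag is not given by any hashtag. Of the 160 levels of 10 genes in 16 gates, 44 were at 100 CPM or more, and the endothelial gates held 6 to 9 of the 10 genes at that level against 0 to 4 in the other gates. Thinned to 2000 UMIs per cell, a sinusoidal cell held a mean of 3.28 of the 10 genes, a capillary cell 2.99, a large-vessel cell 2.90, a macrophage 1.40, a chondrocyte 1.05 and a keratinocyte 0.1704.

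**Figure D1:**
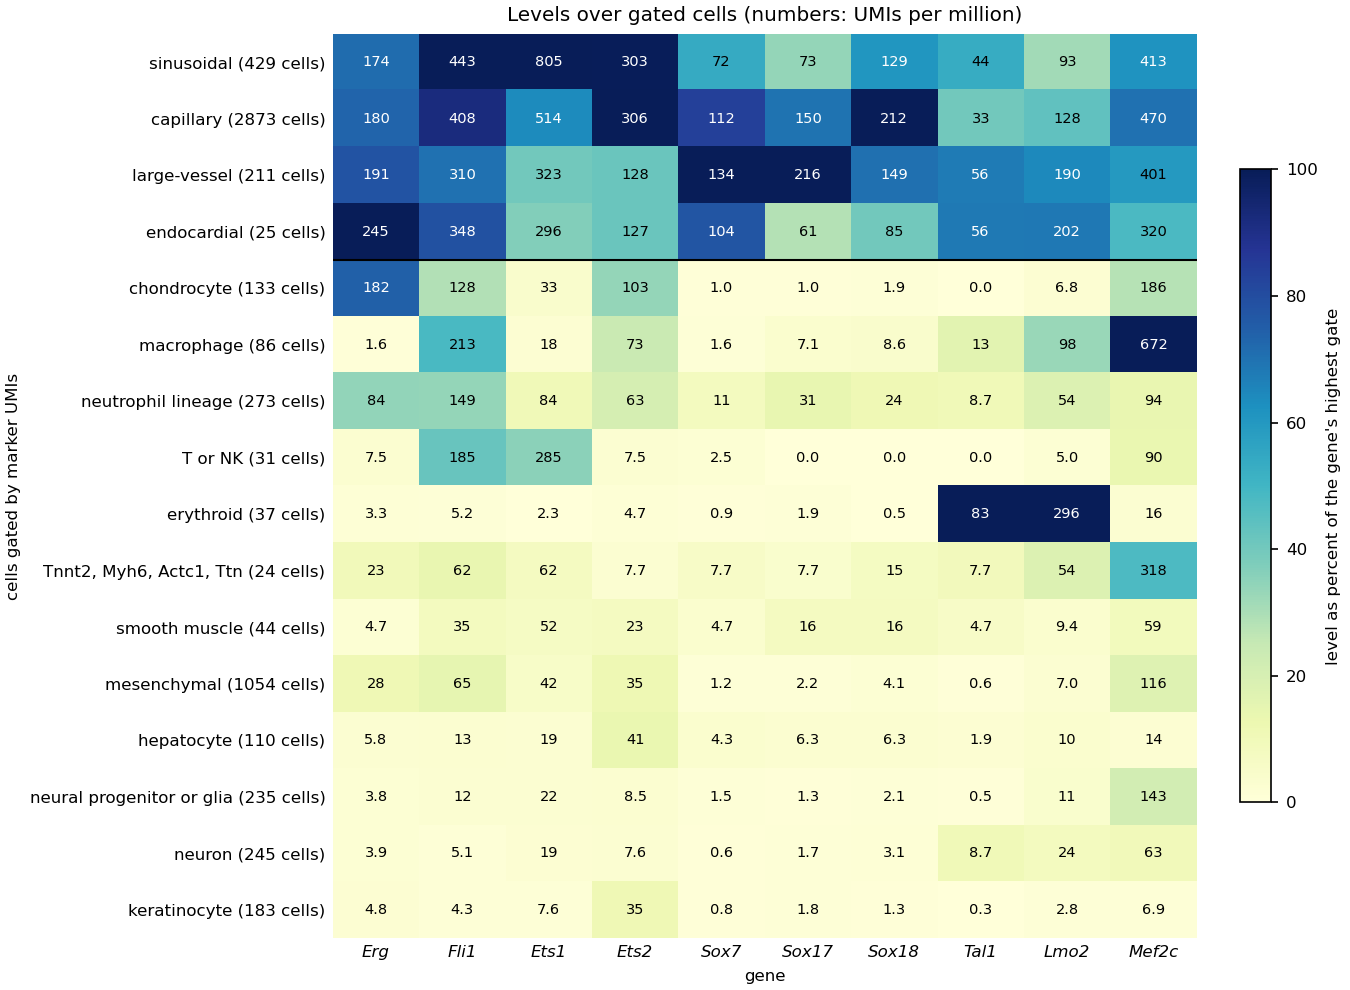
Level of each of the 10 genes (columns) in each of the 16 gates of cells (rows, with the 4 endothelial gates above the line), with the CPM written in each field and colour giving it as a percent of the gene's highest gate. Fli1 and Mef2c extend to macrophages at 213 and 672 CPM, Erg to chondrocytes at 182 CPM, Ets1 to T or NK cells at 285 CPM and Lmo2 to erythroid cells at 296 CPM.

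Erg, the ETS factor most closely tied to endothelial identity, was not restricted to endothelial gates. It was at 245 CPM in the endocardial gate, 191 in the large-vessel, 182 in the chondrocyte, 179.5 in the capillary and 174 in the sinusoidal gate. Each step in that order had an interval that included no change. The chondrocyte gate, whose cells have 0 UMIs of Cdh5 and many of the cartilage collagen Col2a1, was level with the large-vessel and capillary gates. The neutrophil lineage followed at 83.7 CPM, and the sinusoidal gate was 2.08-fold higher than it (95% interval 1.74 to 2.51). All other gates were at 28 CPM or below, with macrophages at 1.57 CPM (95% interval 0.190 to 5.66).

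The neutrophil gate also held endothelial RNA, with Pecam1 at 63 CPM and Kdr, a VEGF receptor of ECs, at 58 CPM, and its cells were shallow, with a median of 3725 UMIs. Among its cells with 0 UMIs of Pecam1, Erg was still at 82.7 CPM. Free RNA, read from 24194 barcodes of 10 to 100 UMIs, held Erg at 105 CPM. Whether free RNA gives the level in the neutrophil gate was not tested.

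Fli1, the ETS factor shared by ECs and blood, was at 100 CPM or more in 8 gates. It was at 443 CPM in the sinusoidal, 408 in the capillary, 348 in the endocardial and 310.2 in the large-vessel gate. Macrophages (213 CPM), T or NK cells (185), the neutrophil lineage (149) and chondrocytes (128) came next, and neighbours among these 4 did not differ beyond their counting intervals. Erythroid cells held it at only 5.16 CPM, although their depth was the highest of all gates at a median of 57529 UMIs.

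Ets1, which acts in ECs and lymphocytes, separated sinusoidal, capillary and large-vessel cells of the whole library, but not large-vessel from endocardial cells. It was at 805 CPM in the sinusoidal, 514 in the capillary, 323 in the large-vessel and 296 in the endocardial gate, and its ratio of sinusoidal to large-vessel cells was 2.49 (95% interval 2.27 to 2.73). T or NK cells held it at 285 CPM, level with the endocardial gate, while the neutrophil lineage held 84.3 and macrophages 18.0 CPM.

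Ets2, a widely used factor downstream of Ras signalling, was higher in sinusoidal and capillary than in large-vessel cells of the whole library. Its levels were 303.4 CPM in the sinusoidal, 305.5 in the capillary, 128 in the large-vessel and 127 in the endocardial gate, and its ratio of sinusoidal to large-vessel cells was 2.38 (95% interval 2.06 to 2.76). The first pair and the last pair did not differ beyond their counting intervals. Chondrocytes held 103 CPM and macrophages 72.9. It was also present outside vessels and blood, in hepatocytes at 41.1 CPM and keratinocytes at 34.5 CPM.

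The SOXF genes reached 100 CPM in endothelial gates only. Sox7 was at 134 CPM in the large-vessel, 112 in the capillary, 104 in the endocardial and 71.8 in the sinusoidal gate. Of these steps between neighbours, that from large-vessel to capillary cells was larger than the counting interval. Capillary and sinusoidal cells are not neighbours in this order, and their intervals lay apart, at 107.6 to 116.5 and 63.4 to 81.05 CPM. Sox17, the arterial factor, was at 216 CPM in the large-vessel, 150.3 in the capillary, 72.9 in the sinusoidal and 61.2 in the endocardial gate, the last 2 within their counting error of each other, and its ratio of sinusoidal to large-vessel cells was 0.338 (95% interval 0.288 to 0.396). Sox18 was highest in capillary cells at 212 CPM, with 149 in large-vessel, 129 in sinusoidal and 84.7 in endocardial cells, and neighbours below capillary cells did not differ beyond their intervals.

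The gates pool tagged and untagged cells in unlike shares. No assigned tag was seen in 2023 of the 2873 capillary, 119 of the 211 large-vessel and 22 of the 25 endocardial cells. Among the 429 sinusoidal cells 66 had none, and 349 carried the hashtag of iSuRe-Cre liver. Within that group these orders were in part others. Sox18 was at 139 CPM in capillary, 142 in large-vessel and 136 in sinusoidal cells, and the intervals of these ratios include no change. Sox17 was at 122 CPM in capillary and 116 in large-vessel cells, and its ratio of sinusoidal to large-vessel cells was 0.623 (95% interval 0.475 to 0.824). Sox7 was at 54.3 CPM in capillary and 77.6 in sinusoidal cells, within their counting error. Erg was at 196 CPM in large-vessel, 179 in sinusoidal and 109 in capillary cells. Its ratios to capillary cells were 1.80 (95% interval 1.29 to 2.56) for large-vessel and 1.65 (95% interval 1.24 to 2.25) for sinusoidal cells. Ets2 was at 313 CPM in sinusoidal and 163 in capillary cells, a ratio of 1.92 (95% interval 1.52 to 2.46), or 1.435 with the gate minimum halved. Ets1 was at 347 CPM in capillary and 328 in large-vessel cells, within their counting error. The capillary gate of this group held 61 cells, while 329 cells of the group were in 2 gates and left out. Its marker Fabp4 was at 2753 CPM in free RNA. Whether free RNA placed cells in that gate was not tested, and the intervals do not cover it.

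Outside ECs the SOXF genes were at or under 31.2 CPM in every gate. In the chondrocyte gate, which was level with large-vessel and capillary cells for Erg, Sox7 was at 0.970, Sox17 at 0.970 and Sox18 at 1.94 CPM. T or NK cells held 0 UMIs of Sox17, Sox18 and Tal1 among 399565, which allows up to 7.51 CPM. A Sox17 UMI was seen in 36.0% of large-vessel cells and 3.28% of keratinocytes, which should lack it, at median depths of 7487 and 20805 UMIs, and after thinning each cell to 2000 UMIs these shares were 22.0% and 0.839%. Capillary cells, with a lower CPM than large-vessel cells, had a Sox17 UMI in 43.2%, and in 21.1% after thinning. The neutrophil lineage held Sox17 at 31.2 and Sox18 at 23.7 CPM, beside the endothelial RNA given above for that gate.

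Tal1 and Lmo2 were highest in red blood cell precursors. Tal1, the helix-loop-helix factor of the pair, was at 83.0 CPM in the erythroid gate, 56.1 in the large-vessel, 56.5 in the endocardial, 44.2 in the sinusoidal and 33.1 in the capillary gate. Lmo2, the bridging partner, was at 296, 190.0, 202, 93.1 and 128 CPM in the same gates. The erythroid gate was above its neighbour, the endocardial gate, beyond the counting interval for Lmo2 but not for Tal1. Macrophages held Lmo2 at 97.96 CPM, within the endothelial range, and Tal1 at 13.3.

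Of the 37 erythroid cells, 97.3% held a UMI of Tal1 and 100.0% one of Lmo2, at a median of 57529 UMIs per cell, and after thinning to 2000 UMIs the shares were 15.6% and 43.8%. The keratinocyte shares, read as background, were 0.546% and 4.92% before thinning. Gata1, the erythroid GATA factor that meets TAL1 and LMO2 in their complex, was highest in the same gate at 96.1 CPM. The ETS and SOXF genes were all at or under 5.16 CPM there. In chondrocytes Tal1 had 0 UMIs, which allows up to 1.46 CPM.

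Mef2c reached 100 CPM in 9 of the 16 gates, more than any other of the 10 genes. It was highest in macrophages at 672 CPM, ahead of capillary (469.9), sinusoidal (413) and large-vessel cells (401), of which the last 2 did not differ beyond their interval. The endocardial gate held 320.1 CPM, and chondrocytes, neural progenitors or glia and mesenchymal cells held 186, 143 and 116 CPM. A gate of 24 cells defined by the muscle genes Tnnt2, Myh6, Actc1 and Ttn held Mef2c at 318 CPM and Pecam1 at 109 CPM. It has no cell type name here, because Myh6, the heart myosin, had 1 UMI in it and the skeletal muscle genes Mylpf, Myl1, Myog and Acta1 were among its leading genes. Fli1 followed in 8 gates, Erg, Ets1 and Ets2 in 5 each, Lmo2 in 4, Sox7 and Sox18 in 3, Sox17 in 2 and Tal1 in 0.

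Likeness of pattern was described by Pearson's r of log2(CPM + 10) over the 11 gates with at least 50 cells, all from 1 library, with no p-value. The erythroid gate (37 cells) and the T or NK gate (31 cells) were among those too small to enter it. The SOXF genes were most alike, at r = 0.987 for Sox7 with Sox18 and 0.983 for Sox7 with Sox17. Tal1 with Lmo2 was at 0.941, below Ets1 with Sox18 at 0.955. The neighbours Fli1 and Ets1 were at 0.811 and Erg and Ets2 at 0.808, while Erg with Lmo2 was at 0.503. Pairs of ETS genes that are not neighbours were at similar or higher values, such as Fli1 with Ets2 at 0.888 and Erg with Ets1 at 0.826. Of 12357 genes, those most like Ets1 were Tmem204, Igfbp7 and Kdr, those most like Sox7 were Gimap1, Pecam1 and Unc45b, and those most like Sox17 were Ly6a, Ecscr and Emcn, several of them endothelial surface proteins. The genes most like Erg were Csgalnact1, Alkbh5 and Arhgef1, and Csgalnact1 makes the sugar chains of cartilage. For the remaining genes these were Ripk3, Tln1 and Rsu1 for Fli1, Ubtd1, Adipor1 and Mgat2 for Ets2, Bcl6b, Unc45b and Gimap1 for Sox18, Parvb, Inpp5k and Rab11a for Tal1, Psmb8, Fxyd5 and Mapk3 for Lmo2, and Ssbp4, Ppp1r12c and Sdcbp for Mef2c.

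In heart, each iSuRe group was set beside the group labelled control, whose genotype the sources used here do not give. All 7 ETS and SOXF genes were lower in iSuRe-Cre than in control heart, with Sox17 lowest. In iSuRe-HadCre heart the SOXF genes were also lower than control, at ratios of 0.787 for Sox18 (95% interval 0.713 to 0.869), 0.790 for Sox7 (95% interval 0.686 to 0.909) and 0.872 for Sox17 (95% interval 0.781 to 0.974). Within the capillary gate of heart these ratios were 0.955 for Sox18, 0.907 for Sox7 and 1.02 for Sox17, each with an interval that included no change. Over all Cdh5-positive cells of iSuRe-HadCre heart, the 4 ETS genes were at 0.9496 to 1.08 of control with group totals and at 0.847 to 0.967 with size factors. Erg was at 210.3 (control), 162 (iSuRe-Cre) and 219 CPM (iSuRe-HadCre heart). Fli1 was at 479 (control), 353 (iSuRe-Cre) and 455 CPM (iSuRe-HadCre heart). Ets1 was at 579 (control), 411 (iSuRe-Cre) and 627 CPM (iSuRe-HadCre heart). These 3 ETS genes shared a dip in iSuRe-Cre heart, where their counting intervals lay below those of both other groups. Ets2 was at 325 (control), 292 (iSuRe-Cre) and 322 CPM (iSuRe-HadCre heart), a narrower range.

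**Figure D2:**
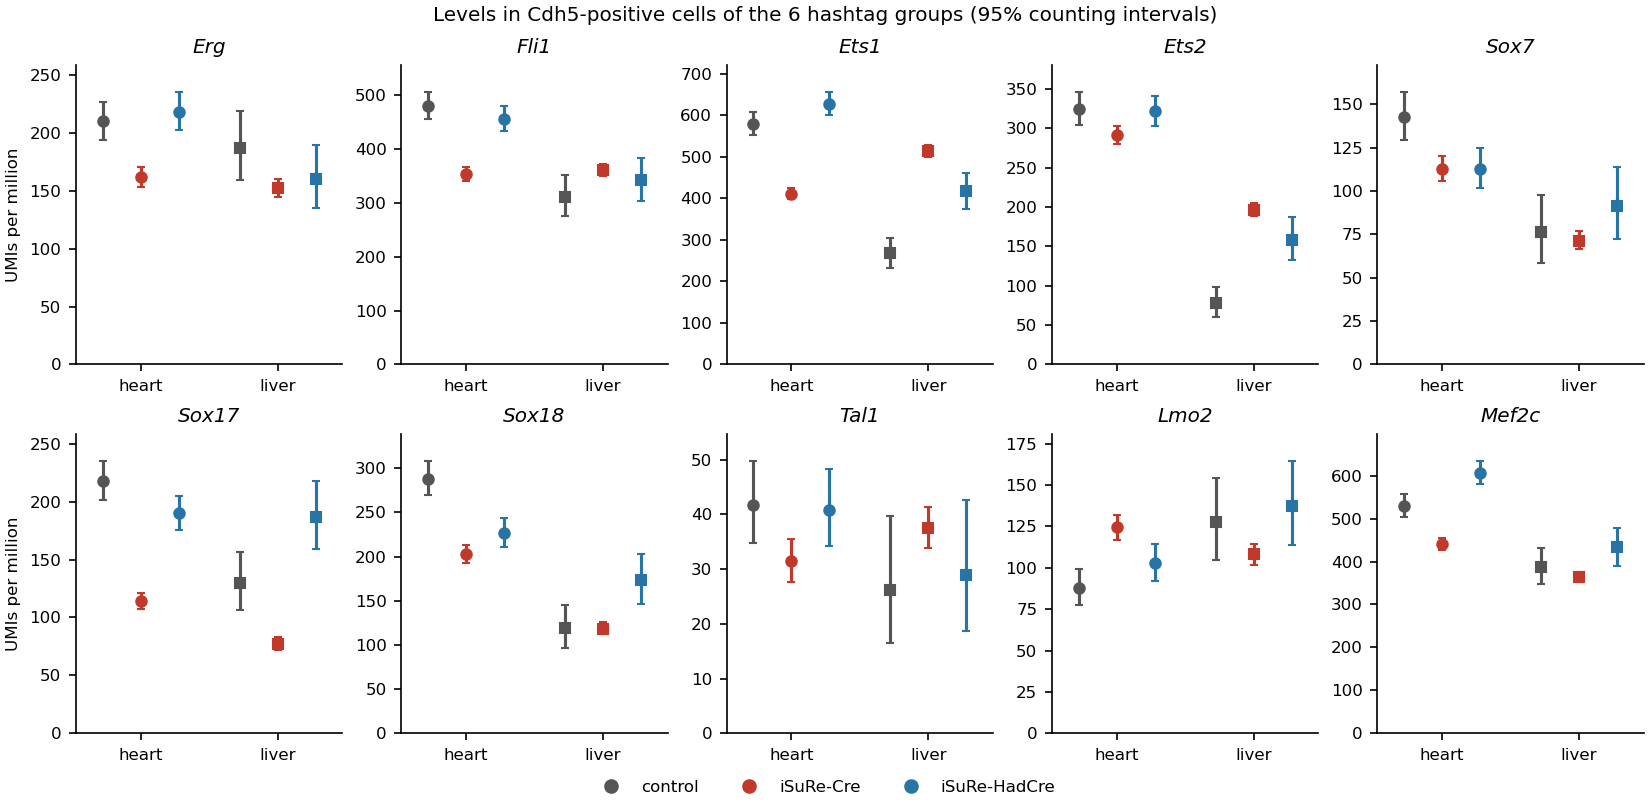
Level of each of the 10 genes in CPM (vertical axis, from 0, 1 panel per gene) in Cdh5-positive cells of the 6 groups (organ on the horizontal axis, genotype in colour), as points with exact 95% Poisson intervals that cover counting error only. Sox17 is lowest in the iSuRe-Cre group of each organ, at 114 CPM in heart and 77.4 in liver, and Ets2 is lowest in control liver at 77.6 CPM.

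Among the SOXF genes, Sox17 was at 218 (control), 114 (iSuRe-Cre) and 189.8 CPM (iSuRe-HadCre heart). Sox18 was at 288 (control), 203 (iSuRe-Cre) and 227 CPM (iSuRe-HadCre heart). Sox7 was at 143 (control), 113 (iSuRe-Cre) and 113 CPM (iSuRe-HadCre heart). The control group was highest for all 3, and for Sox7 the iSuRe groups were level with each other. Tal1 was at 41.8 (control), 31.4 (iSuRe-Cre) and 40.9 CPM (iSuRe-HadCre heart), and Mef2c at 530.1 (control), 440.0 (iSuRe-Cre) and 606 CPM (iSuRe-HadCre heart). Lmo2 ran the other way, at 87.9 (control), 124 (iSuRe-Cre) and 103 CPM (iSuRe-HadCre heart), with iSuRe-Cre highest.

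A gene was counted as past 1.5-fold when the ratio of its levels was at least 1.5 or at most its inverse and both groups together held at least 50 UMIs. Between iSuRe-Cre and control heart 1 of the 10 genes was past 1.5-fold, against 18.5% of 10675 genes counted, so the 10 genes were not past the fold more often than genes in general. That gene was Sox17 at a ratio of 0.524 (95% interval 0.474 to 0.580), and 9.41% of all genes were as low. The other 8 lower genes ran from Sox18 at 0.704 and Ets1 at 0.710 to Ets2 at 0.898, and Lmo2 was at 1.42 (95% interval 1.24 to 1.63). The median log2 ratio of the 10 genes was -0.39, beside -0.06 over all genes counted.

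Between iSuRe-HadCre and control heart 0 of the 10 genes were past 1.5-fold, against 14.9% of 9698 genes. Their ratios ran from 0.787 for Sox18 to 1.17 for Lmo2, with Ets1 at 1.08 (0.967 with size factors) and Mef2c at 1.14, and their median log2 ratio was -0.02 beside 0.13 over all genes. Notch1 in the same comparison was at 0.171 (95% interval 0.133 to 0.218), and at 0.0940 (95% interval 0.0754 to 0.117) between iSuRe-Cre and control heart. Both comparisons share the control cells.

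Compared with each other, iSuRe-HadCre heart was higher than iSuRe-Cre heart for 2 of the 10 genes past 1.5-fold, against 26.5% of 10896 genes in either direction and 21.4% in the higher direction. They were Sox17 at 1.67 (95% interval 1.50 to 1.84) and Ets1 at 1.53 (95% interval 1.45 to 1.61). With size factors in place of group totals, 0 of the 10 were past 1.5-fold, Sox17 at 1.41 and Ets1 at 1.29, and all genes shifted by a median of -0.24 on the log2 scale. Of the genes past the fold, 80.7% were higher with group totals and 46.75% with size factors.

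**Figure D3:**
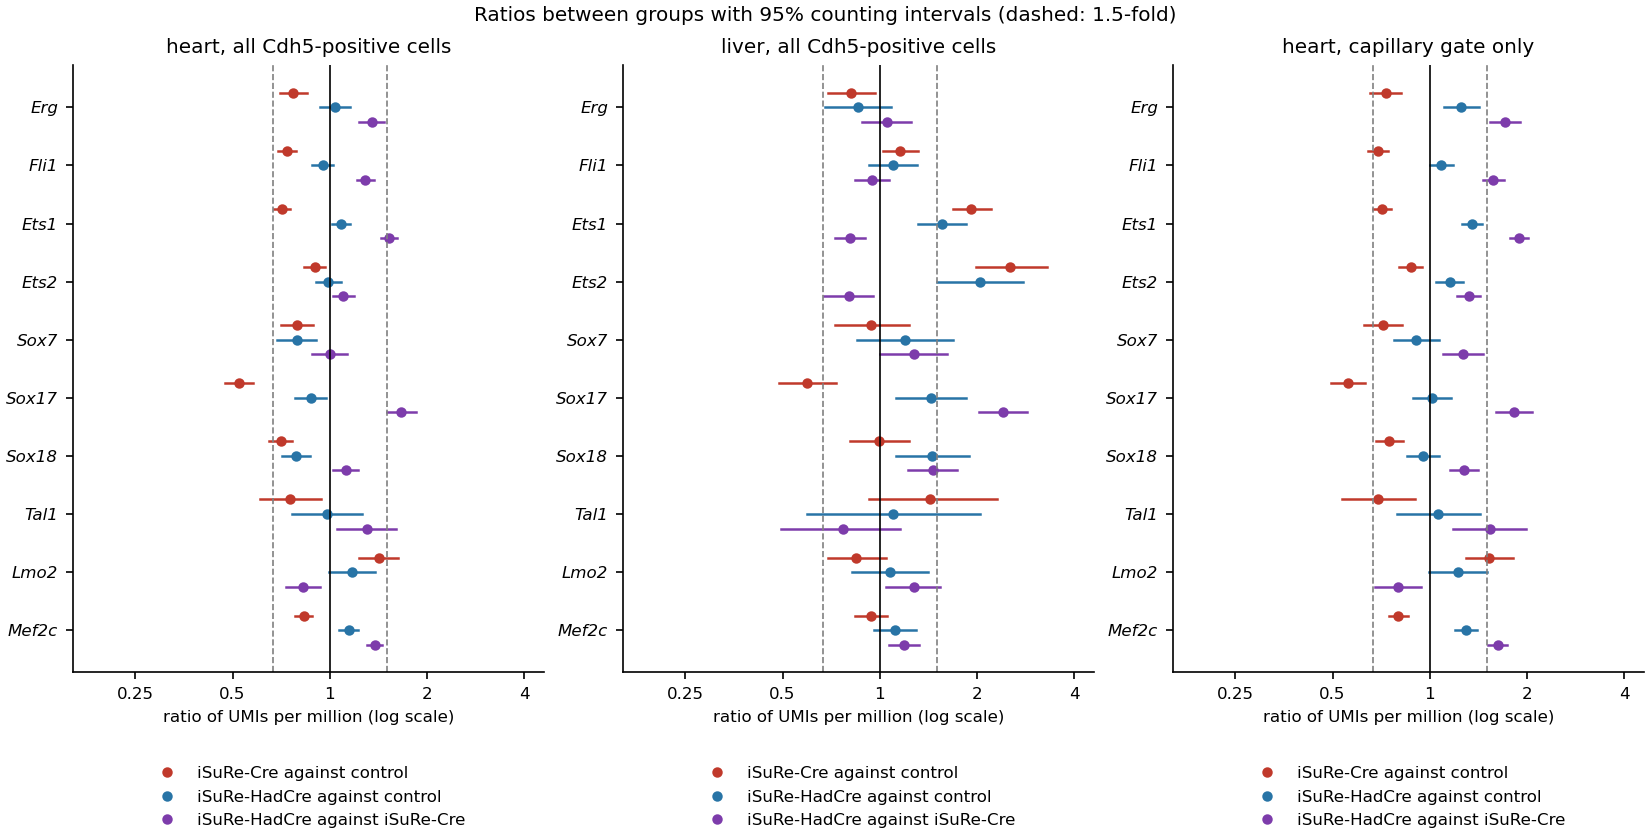
Ratio of levels in CPM between groups on a log axis for each of the 10 genes in the comparisons of genotypes within heart, within liver and within the capillary gate of heart, as points with exact 95% conditional intervals and dashed lines at 1.5-fold in both directions. Sox17 lies past the line in iSuRe-Cre against control in heart (0.524) and liver (0.595), and the 10 genes of iSuRe-HadCre against control heart lie between the lines.

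The heart comparison was also made within 1 kind of cell, the capillary gate, with 194 control and 229 iSuRe-HadCre cells among 725. In these cells, scaled by group totals, iSuRe-HadCre was highest for 7 of the 10 genes and iSuRe-Cre lowest for 9. Among the 7, the intervals of the ratio to control included no change for Fli1, Sox17 and Tal1. The median log2 ratio of iSuRe-HadCre to control was 0.16 over the 10 genes and 0.14 over all genes counted. Ets1 was at 678 (control), 483 (iSuRe-Cre) and 913.5 CPM (iSuRe-HadCre). Mef2c was at 603, 481 and 779.9 CPM, Fli1 at 574, 395 and 622, and Erg at 237, 173 and 297 in the same order. Sox17 was at 220.4, 123 and 224 CPM, so control and iSuRe-HadCre were level for it. Notch1 was at 136, 6.51 and 13.0 CPM.

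Between iSuRe-Cre and control capillary cells, Sox17 was lower at 0.558 (95% interval 0.494 to 0.631) and Lmo2 higher at 1.53 (95% interval 1.30 to 1.82), 2 of the 10 past 1.5-fold beside 24.5% of all genes in either direction, 9.52% higher and 14.9% lower. Between iSuRe-HadCre and control capillary cells 0 of the 10 were past it, beside 16.3% of genes, with Ets1 at 1.35 the furthest. Between iSuRe-HadCre and iSuRe-Cre capillary cells 6 of the 10 were past it, all higher, beside 36.7% of genes in either direction and 28.0% higher. They were Ets1 (1.89), Sox17 (1.82), Erg (1.71), Mef2c (1.62), Fli1 (1.57) and Tal1 (1.54, or 1.48 with the gate minimum doubled). Their median log2 ratio was 0.64 over the 10 genes and 0.23 over all genes. Median depth was higher in iSuRe-Cre heart cells, and its part in these ratios was not tested. These ratios were scaled by group totals. Over all Cdh5-positive heart cells, 0 of the 10 were past 1.5-fold with size factors between iSuRe-HadCre and iSuRe-Cre.

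In liver the same comparison was made between groups of unlike cell make-up. Ets1 and Ets2 were lowest in control liver and Sox17 lowest in iSuRe-Cre liver. Ets1 was at 267 (control), 514 (iSuRe-Cre) and 417 CPM (iSuRe-HadCre liver). Ets2 was at 77.6 (control), 197 (iSuRe-Cre) and 158 CPM (iSuRe-HadCre liver). Sox17 was at 130.1 (control), 77.4 (iSuRe-Cre) and 187 CPM (iSuRe-HadCre liver). Their orders thus differed, since iSuRe-Cre liver was highest for Ets1 and Ets2.

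The other liver levels spread less. Erg was at 187 (control), 152 (iSuRe-Cre) and 160.5 CPM (iSuRe-HadCre liver). Fli1 was at 311 (control), 360.5 (iSuRe-Cre) and 342 CPM (iSuRe-HadCre liver), and Mef2c at 388 (control), 364 (iSuRe-Cre) and 433 CPM (iSuRe-HadCre liver). For Fli1 the 3 groups lay close together, and the ratio of iSuRe-Cre to control was 1.16 with group totals and 0.891 with means over cells. Sox18 was at 119 (control), 118 (iSuRe-Cre) and 173 CPM (iSuRe-HadCre liver). Sox7, Tal1 and Lmo2 ran from 71.5 to 91.2, from 26.3 to 37.5 and from 108 to 137 CPM over the 3 liver groups.

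Between iSuRe-Cre and control liver 3 of the 10 genes were past 1.5-fold, against 28.3% of 11183 genes in either direction, 13.6% higher and 14.7% lower. Ets2 was at 2.54 (95% interval 1.98 to 3.30) and Ets1 at 1.92 (95% interval 1.68 to 2.21), both higher, and Sox17 was lower at 0.595 (95% interval 0.487 to 0.734). The summed sinusoidal markers were at 68.0 CPM in control and 2143 CPM in iSuRe-Cre liver. Without the cells that passed the sinusoidal marker minimum 0 of the 10 were past 1.5-fold, with Ets1 at 0.949, Ets2 at 1.39 and Sox17 at 0.672.

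Between iSuRe-HadCre and control liver 2 of 9 genes with enough UMIs were past 1.5-fold, against 13.8% of 6056 genes in either direction and 7.12% higher. They were Ets2 at 2.04 (95% interval 1.51 to 2.78) and Ets1 at 1.56 (95% interval 1.32 to 1.85), while Sox17 was at 1.44 and Sox18 at 1.45. Between iSuRe-HadCre and iSuRe-Cre liver 1 of the 10 was past it, against 25.4% of 11174 genes in either direction and 12.7% higher, and this was Sox17 at 2.42 (95% interval 2.03 to 2.86). The sinusoidal sums were 427 and 2143 CPM in that last comparison.

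Endothelial gates within 1 group keep genotype and organ fixed, and iSuRe-Cre liver had 349 sinusoidal and 57 large-vessel cells. Ets1 was at 849.7 CPM in sinusoidal and 328 in large-vessel cells, Ets2 at 313 and 107, and Fli1 at 459.6 and 300.7. Sox17 was at 72.5 and 116 CPM, Sox7 at 77.6 and 121, and Lmo2 at 93.4 and 154. The ETS genes other than Erg were thus higher in sinusoids, and Sox7, Sox17 and Lmo2 higher in large vessels.

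In this comparison 6 of the 10 genes were past 1.5-fold, beside 32.1% of genes, 17.6% higher and 14.5% lower. The ratios of sinusoidal to large-vessel cells were 2.93 for Ets2 (95% interval 2.28 to 3.82), 2.59 for Ets1 (95% interval 2.24 to 3.00) and 1.53 for Fli1, and 0.608 for Lmo2, 0.623 for Sox17 and 0.640 for Sox7. With the gate minimum doubled Fli1 was at 1.45 and Sox7 at 0.679, inside the fold. Erg at 0.917, Mef2c at 0.988, Sox18 at 0.956 and Tal1 at 0.932 were within 1.5-fold.

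**Figure D4:**
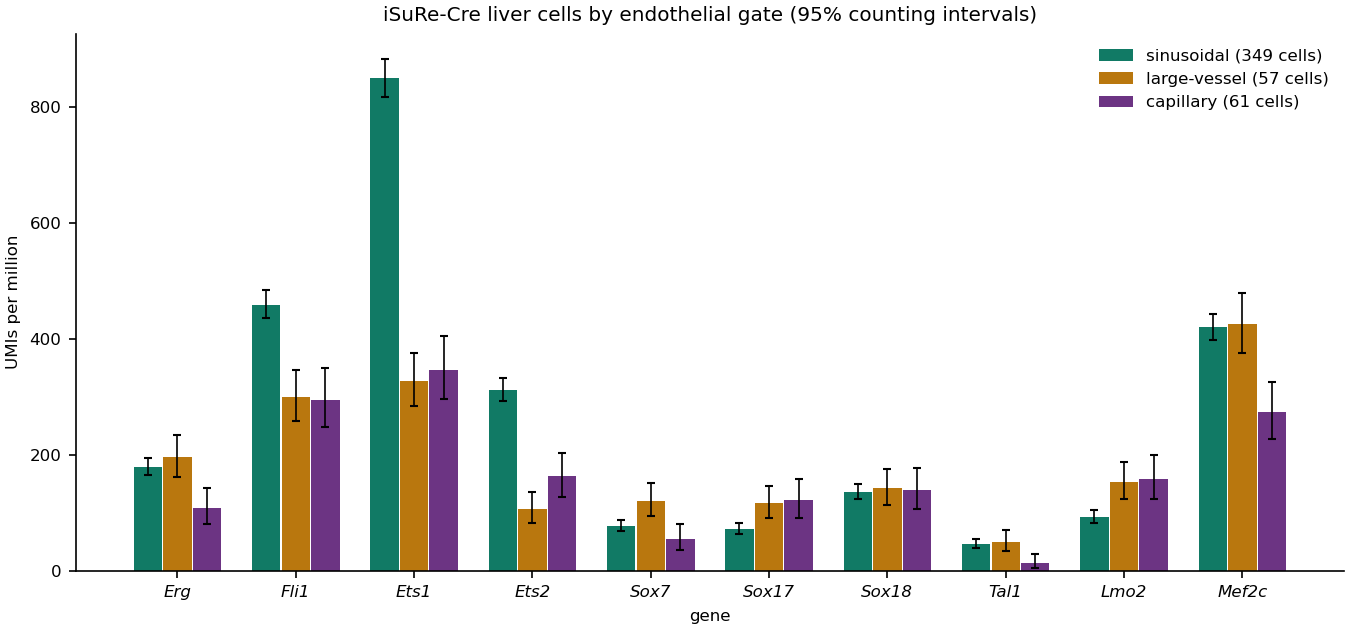
Level of each of the 10 genes in CPM in the sinusoidal (349 cells), large-vessel (57 cells) and capillary (61 cells) gates of iSuRe-Cre liver, as bars from 0 with exact 95% Poisson intervals that cover counting error only. Ets1 stands at 850 CPM in sinusoidal and 328 in large-vessel cells, and Lmo2 at 93.4 and 154.

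Between organs, control liver was lower than control heart for 7 of the 10 genes past 1.5-fold, against 26.9% of 8401 genes in either direction and 11.1% lower. The ratios were 0.239 for Ets2 (95% interval 0.183 to 0.307), 0.414 for Sox18, 0.462 for Ets1, 0.535 for Sox7, 0.598 for Sox17, 0.628 for Tal1 (95% interval 0.380 to 0.993) and 0.650 for Fli1. Lmo2 was at 1.45. Without cells that also passed a non-endothelial marker minimum 2 of the 10 were past it, and the neutrophil marker sum in this comparison was 5878 CPM in liver and 101 in heart.

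Between iSuRe-Cre liver and heart 2 genes were past 1.5-fold, Sox18 at 0.585 (95% interval 0.543 to 0.630) and Sox7 at 0.633 (95% interval 0.574 to 0.698), both lower, against 28.1% of 11929 genes in either direction and 8.75% lower. Between iSuRe-HadCre liver and heart 2 were past it, Ets2 at 0.492 (95% interval 0.409 to 0.588) and Ets1 at 0.664 (95% interval 0.593 to 0.743), both lower, against 21.0% of 8947 genes in either direction and 12.9% lower. Sox18, Ets2 and Mef2c were below their heart level in all 3 organ comparisons, with intervals under 1, at 0.414, 0.585 and 0.764 for Sox18, 0.239, 0.675 and 0.492 for Ets2 and 0.732, 0.826 and 0.714 for Mef2c in control, iSuRe-Cre and iSuRe-HadCre. For Sox7 in iSuRe-HadCre the ratio was 0.809 (95% interval 0.626 to 1.03). Ets1 changed direction, at 1.25 in iSuRe-Cre, where liver held sinusoidal markers at 2143 CPM.

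The relatives and partners of the 10 genes are given by counts past 1.5-fold. Of 22 other ETS genes, 14 could be counted between iSuRe-Cre and control heart, with 2 higher and 1 lower, from Etv4 at 3.18 to Elk4 at 0.631. Between iSuRe-HadCre and control heart 11 could be counted, with 2 higher and 0 lower, and Etv5 was furthest at 2.00. Over all genes counted, 18.5% were past the fold in the first of these comparisons and 14.9% in the second. In the iSuRe-Cre against control liver comparison Spi1, the ETS factor of macrophages, was at 3.61, while the macrophage marker sum was 9.55 CPM in control and 181 in iSuRe-Cre liver. Spi1 was highest in the macrophage gate at 324 CPM.

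Of 12 other SOX genes, 8 could be counted between iSuRe-HadCre and control heart, with 4 higher and 0 lower, and between iSuRe-Cre and control heart 4 were higher and 1 lower. Over all genes counted, 14.9% were past the fold in the first comparison and 18.5% in the second. Sox9, the cartilage SOX factor, was at 10.7 (95% interval 6.20 to 20.0) in the first and 5.01 in the second. The chondrocyte marker sum in those cells was 6.58 (control), 18.0 (iSuRe-Cre) and 131 CPM (iSuRe-HadCre), and Sox9 was highest in the chondrocyte gate at 887.7 CPM. Whether cartilage RNA gives the Sox9 difference was not tested.

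Of 16 partners of TAL1, LMO2 and MEF2C, 14 could be counted between iSuRe-HadCre and control heart, with 2 higher and 2 lower. Runx1, a blood factor, was at 29.2 (95% interval 11.2 to 109), from 4 UMIs in control to 128 in iSuRe-HadCre heart, and Lyl1, the close relative of Tal1, was at 0.496. In iSuRe-Cre against control heart 15 could be counted, with 1 higher and 3 lower. Over all genes counted, 18.5% were past the fold in this comparison and 14.9% in iSuRe-HadCre against control heart.

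Of 22 endothelial genes known to have ETS or SOX sites, 22 could be counted in heart. In iSuRe-Cre against control heart 3 were higher and 7 lower, with Notch4 at 0.0776 and Kdr at 2.60 the extremes. Between iSuRe-HadCre and control heart 1 was higher and 0 lower, and this was Kdr, at 184 CPM in control and 780.4 in iSuRe-HadCre. Notch4 was at 3.70 CPM in iSuRe-Cre heart but 49.3 in iSuRe-HadCre heart. Between iSuRe-Cre and control liver 6 were higher and 5 lower, from Flt4, the VEGF receptor of lymphatic and sinusoidal cells, at 5.59 to Notch4 at 0.182. The shares of all genes past the fold were 18.5% (iSuRe-Cre against control heart), 14.9% (iSuRe-HadCre against control heart) and 28.3% (iSuRe-Cre against control liver).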

How the data were processed

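The authors deposited unfiltered UMI counts of 1 pooled 10x Genomics library, with hashtag reads of the same barcodes, made with Cell Ranger 7.1.0 and the GRCm38 (mm10) genome with transgene sequences added, per the submitters' processing notes and the study's methods. The counts were not normalized. The matrix holds 2755147 barcodes and 21951 gene and transgene features, of which 21884 are Ensembl genes. The labels name no group for 7 more tags of the hashtag and multiplexing kind.

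Barcodes were kept with 2000 to 75000 UMIs, more than 500 genes, and mitochondrial and haemoglobin shares below 5% each, which left 14350. Hashtags with 25 UMIs or more (140 for tag 302) gave 2391 barcodes with 1 tag and 186 with 2 or more, which were left out, and 11773 with none, used only for the gates of cells. No doublet caller was run, and 2136 barcodes in 2 gates were left out of both. A gate needed 4 UMIs of its markers for endothelial gates with Cdh5 present, 10 for other gates and 100 for hepatocytes, with at least 2 markers seen.

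UMIs were summed per group or gate and divided by all UMIs of it. Intervals are exact at 95% (Poisson for levels, conditional binomial for ratios, Clopper-Pearson for shares), and a count of 0 allows 3 UMIs. Shares of cells with a UMI were also given after thinning each cell to 2000 UMIs. With 1 sample per group there was no test. The steps were tested on simulated data. Python 3.11.15, numpy 2.4.6, scipy 1.17.1, pandas 2.3.3 and matplotlib 3.10.9 were used. Alternatives changed the Cdh5, hashtag, WPRE and haemoglobin criteria, the scaling, free RNA, other cell types, the minimum of 50 UMIs, the fold and the gates. The comparisons between gates of iSuRe-Cre liver, those without sinusoidal cells and those without cells of HTO304 and HTO308 were added after seeing the data.

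The 10 genes, the lists and the markers were chosen with earlier results of these data known. The text names the 10 genes, the highest and lowest ratio of a list, the 3 genes most like each of the 10, and the checks Notch1, Pecam1, Cdh5 and WPRE. Kdr, Spi1, Sox9, Gata1, Runx1, Lyl1 and Flt4 are named from the fixed lists, with Gata1 chosen after its values were seen.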

Additional observations from a re-analysis of the deposited data

Results flagged for a closer look

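Barcodes with tags that the labels give to no group held endothelial cells. HTO304 was at 25 UMIs or more in 279 Cdh5-positive barcodes with no assigned tag. In these Erg was at 214 CPM, Ets1 at 598, Sox17 at 283 and Lmo2 at 192, with Stab2 at 4.33 CPM. HTO308 was at that level in 517 such barcodes, with Erg at 189 CPM, Ets1 at 455, Sox17 at 178, Lmo2 at 184 and Stab2 at 10.1. These barcodes enter no comparison between groups.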

How the results depend on the processing

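No paired analysis was possible because the labels give no replicate numbers and each group is 1 sample. Depth limits the liver comparisons, since control liver had 61 cells and 838074 UMIs and iSuRe-HadCre liver 84 cells and 866028. Of 20 ratios past 1.5-fold, 6 stayed past it in all 10 alternatives that kept this fold: Sox17 in iSuRe-Cre against control heart and in iSuRe-HadCre against iSuRe-Cre liver, Ets2 in iSuRe-HadCre against control liver and in liver against heart for control and iSuRe-HadCre, and Sox18 in iSuRe-Cre liver against heart. The causes of the changes below were not tested, other than the smaller number of cells or the stricter fold that a setting itself brings.

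The numbers of the 10 genes past 1.5-fold that moved by over 1.5 times are as follows, and the alternatives not named here gave counts within 1.5 times of the first. In iSuRe-Cre against control heart 1 became 2 with the WPRE criterion, 3 with means over cells, 0 at 2-fold and 2 in the capillary gate. In iSuRe-HadCre against iSuRe-Cre heart 2 became 1 with hashtag limits doubled, 1 with WPRE, 5 with means over cells, 0 with size factors, 5 without cells at a non-endothelial minimum, 0 at 2-fold, 6 in the capillary gate and 1 without HTO304 and HTO308. In iSuRe-HadCre against control heart 0 were past it under every alternative run. In iSuRe-Cre against control liver 3 became 1 at 2-fold and 0 without cells at the sinusoidal minimum, where Ets1 turned to 0.949. In iSuRe-HadCre against control liver 2 became 1 with Cdh5 above 0.9, 1 with hashtag limits doubled, 4 with WPRE, 4 with haemoglobin below 1%, 1 without non-endothelial minimum cells, 1 at 2-fold and 1 without sinusoidal cells. In iSuRe-HadCre against iSuRe-Cre liver 1 became 2 with Cdh5 above 0.9, 3 with WPRE, 2 with haemoglobin below 1%, 2 with means over cells, 3 without non-endothelial minimum cells and 2 without HTO304 and HTO308. In control liver against heart 7 became 3 with Cdh5 above 0.9, 2 without non-endothelial minimum cells and 3 at 2-fold. In iSuRe-Cre liver against heart 2 became 1 with Cdh5 above 0.9, 1 with hashtag limits doubled, 1 with haemoglobin below 1%, 4 with size factors, 4 with 10% free RNA removed, 1 without non-endothelial minimum cells and 0 at 2-fold. In iSuRe-HadCre liver against heart 2 became 1 with Cdh5 above 0.9, 1 with haemoglobin below 1%, 4 with means over cells, 1 with size factors, 1 at 2-fold and 6 without sinusoidal cells. The 44 of 160 gate levels at 100 CPM or more ran from 41 to 48.

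Of all genes past 1.5-fold, the share that was higher went from 84.4% with group totals to 62.2% with size factors in iSuRe-HadCre against control heart, from 80.7% to 46.75% in iSuRe-HadCre against iSuRe-Cre heart, from 49.2% to 59.2% in iSuRe-Cre against control heart, from 58.9% to 40.3% in control liver against heart and from 68.8% to 55.2% in iSuRe-Cre liver against heart. With size factors Ets1 in iSuRe-HadCre against control heart was at 0.967, beside 1.08 with group totals. Comparisons of liver groups within the sinusoidal or large-vessel gate were not run, since control liver had 0 and 9 such cells and iSuRe-HadCre liver 4 and 15. Counts of genes past 1.5-fold against the 61 capillary-gate cells of iSuRe-Cre liver were left out, since many ratios crossed it with the gate minimum.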

Other observations

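Cdh5-positive barcodes with no assigned tag numbered 6104, more than all tagged ones, and held the 10 genes at lower levels than the capillary gate. Erg was at 119.5 CPM, Fli1 at 243, Ets1 at 291.5, Sox17 at 110.2, Sox18 at 97.5 and Mef2c at 298. Among 8871 barcodes left out for a haemoglobin share of 5% or more, Lmo2 was at 132 CPM, Tal1 at 41.6 and Erg at 39.0. Free RNA held Fli1 at 166 CPM, Ets1 at 203, Lmo2 at 84.5, Sox17 at 60.7 and Mef2c at 198, beside Cdh5 at 280 and Pecam1 at 203.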
